A study of Homo sapiens with 22 samples.

Results

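The exon usage of polyadenylation, export and mRNA decay factors was followed in HEK293T cells after knockdown of HNRNPG, METTL3 or METTL14. The members are all exonic bins of 9 gene models, chosen by name: CSTF3, FIP1L1, the joined model of POLR2D, RPS26P19 and WDR33, the joined model of BCL2L2 and PABPN1, the joined model of PABPC4 and SNORA55, the joined model of NXF1 and TMEM223, the joined model of DDX19B and DDX19A, CNOT4, and the joined model of SHB, MCART1 and EXOSC3. They hold 60 of the 2635 bins and 9 of the 636 gene models in the table of genes with listed N6-methyladenosine (m6A) sites. The models are cut into exonic bins wherever an exon of any transcript starts or ends, and the usage of a bin is its reads relative to those of the rest of its model.

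HEK293T is a line derived from human embryonic kidney. RNA-seq covered 12 libraries in 6 groups of 2: wild-type controls of the hnRNPG series with HNRNPG knockdowns KD1 and KD2, and wild-type controls of the Mettl series with METTL3 knockdown and METTL14 knockdown. The knockdown agents and times are not stated in the labels, and the labels do not say whether replicate libraries are separate cultures. A further 10 crosslinking libraries were not analysed here.

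An mRNA gets its 3′ end when the cleavage and polyadenylation machinery recognises the poly(A) signal, cuts the transcript and adds a poly(A) tail. Poly(A)-binding proteins coat the tail, export factors take the mRNA through the nuclear pore, and deadenylases and the RNA exosome later shorten and degrade it. HNRNPG, encoded by RBMX, binds pre-mRNA in the nucleus and influences splicing. METTL3 and METTL14 are partners in the enzyme that places m6A on RNA. The comparisons ask whether loss of HNRNPG or of the m6A writers moves the exon usage of these genes.

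All values below are log2 of knockdown over control from the authors' deposited table with the sign turned, so that values below 0 mean lower usage in the knockdown. Each is a single value per bin and knockdown, without an error, a p-value or values of the single libraries, so no bin has a replicate check, the depth behind a bin is unknown, and a difference cannot be set against the spread between libraries. KD1 and KD2 share control libraries, as do METTL3 and METTL14. Whether the targeted genes were depleted was not analysed here. Coordinates are hg19, counted from 1. Coding or untranslated status was not analysed here.

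Fewer of the listed bins lie in the named factors than the model names convey. Bins of joined models were placed by the order, lengths and spacing of the genes in RefSeq (GRCh38, with no coordinate converted). Bins of single-gene models were assigned by model name. By this placement 33 of the 60 bins are assigned to a polyadenylation, export or decay factor, and 27 to a gene joined to one or between genes. The 5 bins of CSTF3 span 84182 bp against 76897 bp in RefSeq, so they cannot all lie inside that gene. The 9 bins of WDR33 span 110342 bp, also more than its 110145 bp in RefSeq. All bins of both genes are nevertheless counted among the 33 here and below. No listed bin lies in EXOSC3, and none is placed in PABPN1, although both give their models a place among these factors. WDR33 holds 9 bins, PABPC4 7, CSTF3 and DDX19B 5 each, CNOT4 3, FIP1L1 2, and NXF1 and DDX19A 1 each. The remainder is 8 bins of POLR2D, 7 of SHB, 6 of MCART1, 4 of BCL2L2, 1 of TMEM223 and 1 between BCL2L2 and PABPN1.

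**Figure D1:**
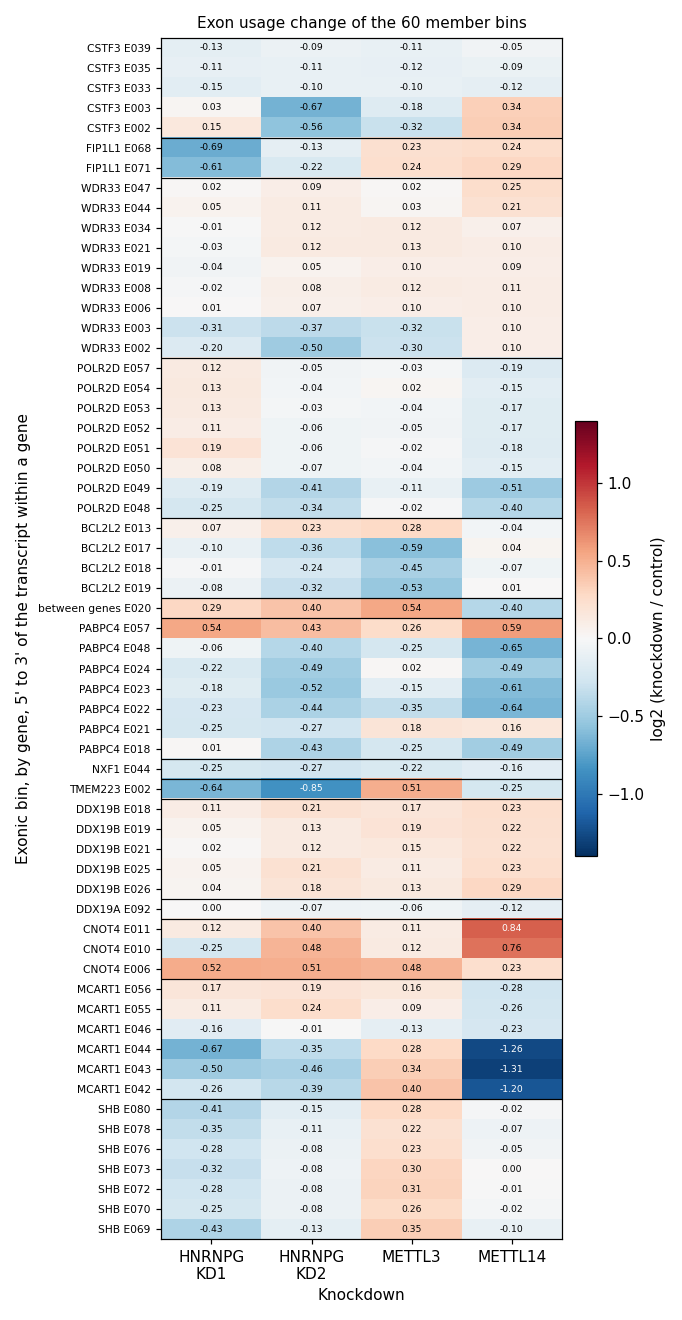
Heat map of the log2 change of exon usage (knockdown over control, colour and printed value) for the 60 bins in rows, by gene and from 5′ to 3′ within a gene, and the 4 knockdowns in columns. MCART1 bins E042, E043 and E044 in METTL14 knockdown, at -1.20, -1.31 and -1.26, are the only values beyond 1 in size.

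Changes in these 9 models were mostly small. A size of 0.5 was used for counting, and 20 of the 60 bins (33.3%) reached it in at least 1 knockdown, against 41.3% of all bins in the authors' deposited table. In KD1 7 bins reached it, 2 higher and 5 lower, where the background over all bins was 15.0%, with 6.0% higher and 9.03% lower. In KD2 6 bins did, 1 higher and 5 lower, against 21.7% of all bins, 7.78% higher and 13.9% lower. In METTL3 knockdown 4 bins did, 2 in each direction, against 22.4% of all bins, 7.63% higher and 14.8% lower. In METTL14 knockdown 10 bins did, 3 higher and 7 lower, against 16.0% of all bins, 5.46% higher and 10.6% lower. The member shares were 11.7%, 10.0%, 6.67% and 16.7% in that order, near the background in KD1 and METTL14 and lower than it in KD2 and METTL3. These shares rest on bins of 9 models, and no test was made of them. The size of the median member bin, sign aside, was 0.15, 0.20, 0.17 and 0.20 in KD1, KD2, METTL3 and METTL14, beside 0.19, 0.26, 0.27 and 0.19 over all bins of the authors' deposited table.

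By counts at 0.5, factors and joined genes differed most in METTL3 knockdown and in KD2, in opposite directions. None of the 33 bins in a factor reached 0.5 in METTL3 knockdown, and all 4 bins that did lie in BCL2L2, in TMEM223 or between BCL2L2 and PABPN1. Of the factor bins, CNOT4 bin E006 came nearest, at 0.48. In METTL14 knockdown 6 of the 33 factor bins reached it, in PABPC4 and CNOT4 only. In KD1 4 of them and in KD2 5 of them did, the latter including CSTF3 bins E002 and E003, which may lie outside the RefSeq gene. Of the 27 other bins 3, 1, 4 and 4 reached it in KD1, KD2, METTL3 and METTL14. The shares over all bins were 15.0%, 21.7%, 22.4% and 16.0% in the same order, and the differences were not tested. For the 33 factor bins the medians were -0.02, -0.07, 0.10 and 0.11 for KD1, KD2, METTL3 and METTL14. For the 27 bins outside the factors they were -0.16, -0.08, 0.16 and -0.17, so by medians the difference was largest in METTL14. Over all 60 bins the medians were -0.05, -0.08, 0.10 and -0.04, and over the whole authors' deposited table they were -0.04, -0.06, -0.04 and -0.04. The METTL14 median thus changes sign with the bins of the joined genes, and no median lay far from 0.

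**Figure D2:**
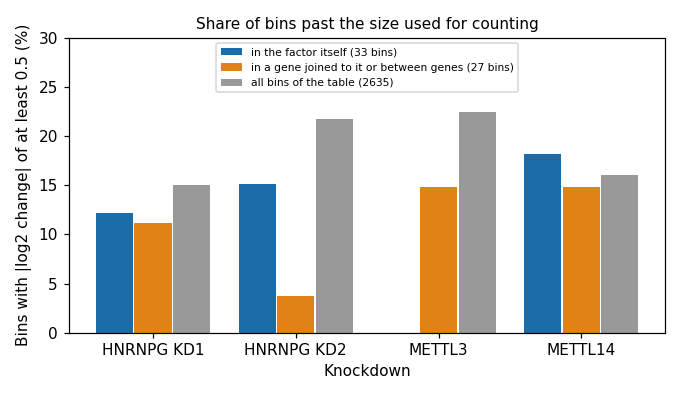
Bars give the percentage of bins with a log2 change of at least 0.5 in either direction in each knockdown. They cover the 33 bins assigned to a factor, the 27 bins in joined genes or between genes, and all 2635 bins. The METTL3 bar of the factor bins is at 0, against 22.4% of all bins.

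CSTF3 is the scaffold subunit of the cleavage stimulation factor, which binds downstream of the cleavage site. Its 5 listed bins fall into 2 sets at opposite ends of the model (chromosome 11, minus strand). The pair nearest the 3′ end was bin E002 (33098734 to 33098996, 263 bp), with 0.15, -0.56, -0.32 and 0.34 for KD1, KD2, METTL3 and METTL14, per the authors' deposited table. The touching bin E003 (33098997 to 33099156, 160 bp) had 0.03, -0.67, -0.18 and 0.34 in the same order in the authors' deposited table. Usage at this end was thus lower in KD2 and METTL3 and higher in METTL14 knockdown, while KD1 stood near 0 for E003. The other 3 bins, E033, E035 and E039, lie toward the 5′ end, and all 12 of their values in the authors' deposited table were between -0.15 and -0.05. The listed bins span 84182 bp, more than the 76897 bp of CSTF3 in RefSeq, so the model runs past the RefSeq gene at one end or both. Either E002 and E003, or E039, or all of them thus lie outside the RefSeq gene, and which was not determined. A listed m6A site lies 129 bp from E033, which had -0.15, -0.10, -0.10 and -0.12 for KD1, KD2, METTL3 and METTL14, per the authors' deposited table.

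FIP1L1 is a subunit of the cleavage and polyadenylation specificity factor and contacts poly(A) polymerase. Both listed bins had their largest value in KD1 and differed in sign between the HNRNPG and the METTL knockdowns (chromosome 4, plus strand). Bin E068 (54326104 to 54327028, 925 bp) had -0.69, -0.13, 0.23 and 0.24 for KD1, KD2, METTL3 and METTL14, per the authors' deposited table. Bin E071, downstream of it (54327663 to 54330811, 3149 bp), had -0.61, -0.22, 0.24 and 0.29 in the authors' deposited table. The values of the 2 bins lay within 0.1 of each other in every knockdown, whereas KD1 minus KD2, both made against the same controls, was -0.57 at E068. In RefSeq FIP1L1 overlaps LNX1. The libraries were stranded, but the sources used here do not give whether counting used the strand.

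WDR33 is the subunit of the cleavage and polyadenylation specificity factor that reads the poly(A) signal, and its model also spans POLR2D, a subunit of RNA polymerase II (chromosome 2, minus strand). The 2 genes form separate runs of bins. WDR33 bins E002 and E003, at the 3′ end of the model, stood apart from the rest of the gene in KD1, KD2 and METTL3. Bin E002 (128458380 to 128461807, 3428 bp) had -0.20, -0.50, -0.30 and 0.10 for KD1, KD2, METTL3 and METTL14, per the authors' deposited table. Bin E003 next to it (128461808 to 128462712, 905 bp) had -0.31, -0.37, -0.32 and 0.10 in the authors' deposited table. The other 7 WDR33 bins stayed between -0.04 and 0.13 in KD1, KD2 and METTL3 in the authors' deposited table. In METTL14 knockdown all 9 WDR33 bins were above 0, from 0.07 to 0.25, and the 3′ bins did not stand apart.

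The 3′ bins of POLR2D also stood apart from the rest of their gene, in KD1, KD2 and METTL14. Its 3′ bin E048 (128601126 to 128603840, 2715 bp) had -0.25, -0.34, -0.02 and -0.40 for KD1, KD2, METTL3 and METTL14, per the authors' deposited table. Bin E049 (128603841 to 128604272, 432 bp) had -0.19, -0.41, -0.11 and -0.51 in the authors' deposited table. The 6 other bins, E050 to E054 and E057, were from 0.08 to 0.19 in KD1, -0.07 to -0.03 in KD2, -0.05 to 0.02 in METTL3 and -0.19 to -0.15 in METTL14 in the authors' deposited table. The METTL14 values of the 2 genes did not overlap: all 8 POLR2D bins were below 0 and all 9 WDR33 bins above. Usage is relative to the whole joined model, so different usage of exons and different levels of WDR33 and POLR2D cannot be told apart for such a gene-wide offset. RPS26P19 is a pseudogene inside POLR2D, and which POLR2D bins it overlaps was not determined. All 8 listed m6A sites of the model lie within the stretch covered by the WDR33 bins, the nearest 225 bp from E047.

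The model of PABPN1, the nuclear protein that coats the growing poly(A) tail, had its listed bins in BCL2L2, a pro-survival member of the BCL2 family, and in the stretch between the genes (chromosome 14, plus strand). Bin E017 (23778142 to 23780181, 2040 bp) had -0.10, -0.36, -0.59 and 0.04 for KD1, KD2, METTL3 and METTL14, per the authors' deposited table. Bin E018 (23780182 to 23780353, 172 bp) had -0.01, -0.24, -0.45 and -0.07 in the authors' deposited table. Bin E019 (23780354 to 23781154, 801 bp) had -0.08, -0.32, -0.53 and 0.01 in the authors' deposited table. These 3 touching bins were lowest in METTL3 knockdown, lower in KD2 and near 0 in KD1 and METTL14. Bin E018 holds the m6A site at 23780218 and is the only member bin with a listed site inside it. E017, which ends where E018 begins and has a site 38 bp before it, had the lower value in METTL3. Bin E013, upstream in BCL2L2 (23777132 to 23777408, 277 bp), had 0.07, 0.23, 0.28 and -0.04 in the authors' deposited table.

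Bin E020 (23788944 to 23789039, 96 bp) begins 7789 bp past E019, in the stretch that RefSeq assigns to the readthrough gene BCL2L2-PABPN1. It had 0.29, 0.40, 0.54 and -0.40 for KD1, KD2, METTL3 and METTL14, per the authors' deposited table. Its sign was opposite to that of E017 and of E019 in every knockdown. Within this model a lower share of the 3′ bins of BCL2L2 thus came with a higher share of the bin between the genes in METTL3 knockdown. A change in 1 bin moves the others, since usage is relative.

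PABPC4 is a cytoplasmic poly(A)-binding protein, and its 7 bins carried the most values past 0.5 of any factor (chromosome 1, minus strand). The 5′-most listed bin, E057 (40042462 to 40042521, 60 bp), had 0.54, 0.43, 0.26 and 0.59 for KD1, KD2, METTL3 and METTL14, per the authors' deposited table, above 0 in all 4. Bin E048 (40036847 to 40036905, 59 bp) had -0.06, -0.40, -0.25 and -0.65 in the authors' deposited table. Bin E022 (40029595 to 40029709, 115 bp) had -0.23, -0.44, -0.35 and -0.64 in the authors' deposited table. Usage of the 2 inner bins was thus below 0 in all 4 knockdowns, and both had their lowest value in METTL14. Bin E023 (40029710 to 40029796, 87 bp) followed with -0.18, -0.52, -0.15 and -0.61 in the authors' deposited table. The touching bin E024 (40029797 to 40029904, 108 bp) had -0.22, -0.49, 0.02 and -0.49 in the authors' deposited table. At the 3′ side, E018 (40028089 to 40029285, 1197 bp) had 0.01, -0.43, -0.25 and -0.49 there, again lowest in METTL14. Bin E021, which touches E022 (40029508 to 40029594, 87 bp), went another way, with -0.25, -0.27, 0.18 and 0.16 in the authors' deposited table. The step from E022 to E021 was 0.80 in METTL14 knockdown, the largest between touching member bins, which had a median step of 0.06. SNORA55, a small nucleolar RNA inside PABPC4, overlaps none of the listed bins by its place in RefSeq.

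**Figure D3:**
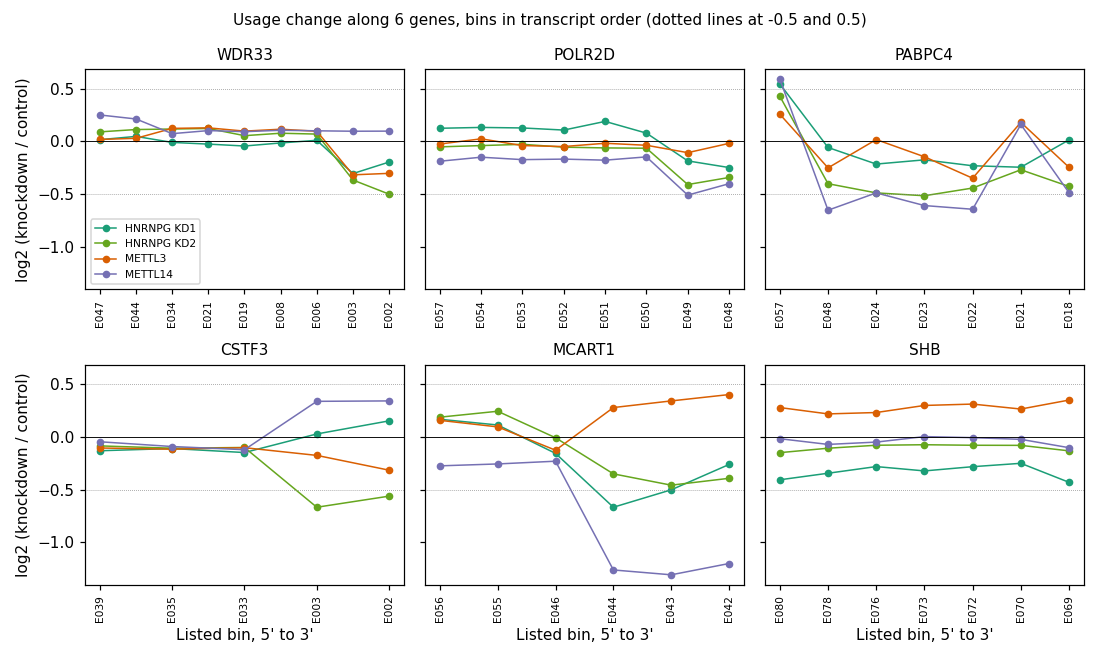
Lines give the log2 change of exon usage (knockdown over control) for each listed bin of 6 genes in transcript order, 5′ at the left, with 1 line per knockdown and dotted lines at -0.5 and 0.5. The 3′ bins lie below the upstream bins for E003 and E002 of WDR33 in KD1, KD2 and METTL3, for E049 and E048 of POLR2D in KD1, KD2 and METTL14, and for E044 to E042 of MCART1 in KD1, KD2 and METTL14, while the 7 SHB bins run flat.

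NXF1 is the export receptor that carries mRNA through the nuclear pore. Its 1 listed bin, E044 (chromosome 11, 62566729 to 62567584, minus strand, 856 bp), had -0.25, -0.27, -0.22 and -0.16 for KD1, KD2, METTL3 and METTL14, per the authors' deposited table. The 4 values lay close together and on one side. The other bin of this model, E002 (62539133 to 62539471, 339 bp), lies 27257 bp away in TMEM223, a gene for a transmembrane protein. It had -0.64, -0.85, 0.51 and -0.25 in the authors' deposited table, the lowest KD2 value of all members. It was 1 of 2 member bins that reached 0.5 on one side in both KD1 and KD2 (3.33%, against 7.13% of all bins, 3.04% higher and 4.1% lower). In RefSeq TMEM223 overlaps TAF6L, and the sources used here do not give whether counting used the strand. Different levels of NXF1 and TMEM223 cannot be told apart from exon usage at bin E002.

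By the median size over the 4 knockdowns, this TMEM223 bin had the largest change of all 60. The 3 bins of other single-gene models with the most similar values, by Euclidean distance over the 4 log2 changes, were OLA1 bin E001 (distance 0.20), DEPDC1 bin E008 (0.36) and ZNF195 bin E008 (0.40). OLA1 bin E001 had -0.47, -0.84, 0.41 and -0.28 for KD1, KD2, METTL3 and METTL14, per the authors' deposited table. These distances rest on 4 values with shared controls and only describe the table.

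DDX19B and DDX19A are close paralogs, DEAD-box ATPases that release exported mRNA at the cytoplasmic side of the pore. None of their bins reached 0.5. The 5 DDX19B bins (chromosome 16, 70348805 to 70358512, plus strand) were above 0 in every knockdown, at 0.02 to 0.11 in KD1, 0.12 to 0.21 in KD2, 0.11 to 0.19 in METTL3 and 0.22 to 0.29 in METTL14 in the authors' deposited table. Bin E018 of DDX19B (70348805 to 70348858, 54 bp), the largest by median size, had 0.11, 0.21, 0.17 and 0.23 in the authors' deposited table. The last bin of the model, E092 in DDX19A (70406233 to 70406973, 741 bp), had 0.00, -0.07, -0.06 and -0.12 in the authors' deposited table. DDX19B usage was thus higher and the usage of DDX19A bin E092 at or below 0 in all 4 knockdowns, by small amounts. Different levels of DDX19B and DDX19A cannot be told apart from exon usage in such an offset. Reads shared by the paralogs could make the split between them uncertain, which was not examined, and 2 of the DDX19B bins are 7 and 18 bp long.

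CNOT4 is the ubiquitin ligase that binds the CCR4-NOT deadenylase complex. All 3 of its listed bins reached 0.5 (chromosome 7, minus strand), each in the higher direction. Bin E006 (135048606 to 135048818, 213 bp) had 0.52, 0.51, 0.48 and 0.23 for KD1, KD2, METTL3 and METTL14, per the authors' deposited table. It is the other member bin that reached 0.5 in both KD1 and KD2. The pair of touching bins upstream was highest in METTL14 instead. Bin E010 (135072334 to 135072686, 353 bp) had -0.25, 0.48, 0.12 and 0.76 in the authors' deposited table. Bin E011 (135072687 to 135073646, 960 bp) had 0.12, 0.40, 0.11 and 0.84 in the authors' deposited table. Of the 12 CNOT4 values 11 were above 0, and the largest belonged to HNRNPG knockdown at the 3′ bin and to METTL14 knockdown at the upstream pair.

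EXOSC3 encodes a cap subunit of the RNA exosome, the main 3′-to-5′ RNA-degrading complex, but the 13 bins listed for its model lie in MCART1 and SHB (chromosome 9, minus strand). The run of 7 bins from 37915895 to 38068339 spans 152445 bp, which only SHB is long enough to hold. The 6 bins from 37877572 to 37899938 span 22367 bp, more than the 5379 bp of EXOSC3, and fall in MCART1 (SLC25A51 in RefSeq), a carrier of the mitochondrial inner membrane. The listed m6A site of the model, at 37778804, is 98768 bp from the nearest listed bin.

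The lowest usage values of all members belonged to 3 touching bins at the 3′ end of MCART1 in METTL14 knockdown. Bin E042 (37877572 to 37880547, 2976 bp) had -0.26, -0.39, 0.40 and -1.20 for KD1, KD2, METTL3 and METTL14, per the authors' deposited table. Bin E043 (37880548 to 37880622, 75 bp) had -0.50, -0.46, 0.34 and -1.31 in the authors' deposited table. Bin E044 (37880623 to 37880745, 123 bp) had -0.67, -0.35, 0.28 and -1.26 in the authors' deposited table. METTL3 and METTL14 knockdown, made against the same controls, thus had opposite signs at all 3 bins and differed by 1.54 to 1.65. The next bin upstream, E046 (37881885 to 37883036, 1152 bp), had -0.16, -0.01, -0.13 and -0.23, and E055 and E056 had -0.26 and -0.28 in METTL14 in the authors' deposited table. The 7 bins of SHB, an adaptor protein of tyrosine kinase signalling, moved as a block, at -0.43 to -0.25 in KD1, -0.15 to -0.08 in KD2, 0.22 to 0.35 in METTL3 and -0.10 to 0.00 in METTL14 in the authors' deposited table. Different levels of SHB and MCART1 cannot be told apart from exon usage in such a block.

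Across all 60 bins, 22 (36.7%) had their 4 values on one side of 0, 11 higher and 11 lower, against 40.6% of all bins in the authors' deposited table, 16.7% higher and 23.9% lower. The higher bins were 5 of DDX19B, 3 of WDR33, 2 of CNOT4 and 1 of PABPC4. The lower bins were 3 of CSTF3, 3 of PABPC4, 2 of POLR2D and 1 each of NXF1, BCL2L2 and MCART1. Most of these values were small, and PABPC4 bin E057 alone had at least 0.25 in all 4. Of the 33 bins placed in a factor, 18 (54.5%) had all 4 values on one side, 11 higher and 7 lower. That share was above the 40.6% of all bins. It rests on neighbouring bins of few models and was not tested.

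The lower values at the last listed bins of WDR33, POLR2D and MCART1 were noticed first and then counted over all genes. These genes were kept in the count, so the member counts are not independent of that observation. Among the 10 member genes with at least 2 listed bins, the 3′-most bin stood below the median of the gene's other bins in 6 genes for KD1, 8 for KD2, 5 for METTL3 and 5 for METTL14. The same held for 56.1%, 57.6%, 43.9% and 48.0% of the 344 single-gene models with as many bins in the authors' deposited table. The difference between the 3′-most bin and the others was lowest at -0.58 for WDR33 in KD2, -0.37 for POLR2D in KD1 and -0.93 for MCART1 in METTL14. It was highest at -0.004 for WDR33 in METTL14, 0.02 for POLR2D in METTL3 and 0.24 for MCART1 in METTL3. CNOT4 and CSTF3 also went both ways, and E002, the 3′-most listed bin of CSTF3, may lie outside the RefSeq gene. The difference was 0.58 in KD1 and -0.57 in METTL14 for CNOT4, and 0.41 in METTL14 and -0.46 in KD2 for CSTF3.

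Of the other genes on lists of cleavage and polyadenylation (25 symbols), export and poly(A) binding (39) and decay (67), 4 models with 23 bins were in the table. C1orf77 (CHTOP), an export factor, had 4 of its 9 bins past 0.5 in KD2, all lower, with -0.66, the lowest of these, at bin E017, and none in the other knockdowns of the authors' deposited table. SSU72 is a phosphatase of the RNA polymerase II tail. Its bin E010 had -0.43, -0.33, -1.12 and -0.52 for KD1, KD2, METTL3 and METTL14, per the authors' deposited table. Bin E011 of SSU72, 8 bp long, had -0.48, -0.51, -1.21 and -0.43 in the same order in the authors' deposited table. LSM7, of the ring that binds shortened mRNA tails, had 0.68 and 0.76 in bins E016 and E017 in METTL3 knockdown in the authors' deposited table. LSM7 bin E010 had -0.37 in the same knockdown. CPSF3L, now known as the catalytic subunit of the Integrator complex, had 1 of 5 bins past 0.5, E068 at -0.61 in KD2 in the authors' deposited table. Over the 23 bins, 0 were past 0.5 in KD1, against 15.0% of all bins. In KD2 6 were (26.1%), all lower, against 21.7% of all bins. In METTL3 knockdown 4 were (17.4%), 2 in each direction, against 22.4%. In METTL14 knockdown 1 was (4.35%), which was lower, against 16.0%.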

How the data were processed

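The authors' deposited table gives, per the file headers, a log2 ratio for each exonic bin, with the control on top and the knockdown below, and the sample descriptions name DEXSeq. Per the submitters' processing notes, which give no roles, TopHat 1.1.4 and Bowtie 1.0.0 were used besides Trimmomatic, Cuffdiff and Cufflinks, with hg19 as the build. Per the labels' protocols, RNA-seq libraries were stranded mRNA libraries. Normalization between libraries, the DEXSeq version and the rule for listing a bin are likewise not stated there. Only listed bins are seen, so shares describe listed bins.

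Here the sign was turned, and bins were counted at a size of 0.5 and summarised by medians. No test was run, since no value per library was used and the members and lists were chosen with earlier results of these data known. Bins in joined models were placed by the order, lengths and spacing of the genes in RefSeq GRCh38, and those of single-gene models by model name. Bins given with all 4 values are those of at least 0.5 in any knockdown, the largest bin of a model with none, and bins holding a listed m6A site. Others were added after their values were seen. The counting was tested on simulated data. Alternatives covered sizes, bin length, placement, units and single models. Python 3.11.15, numpy 2.4.6, pandas 2.3.3 and matplotlib 3.10.9 were used.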

Additional observations from a re-analysis of the deposited data

How the results depend on the processing

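No paired analysis was possible because the table holds 1 value per bin and knockdown and no value per library, and for the same reason no library could be left out. At a size of 0.25, 17, 24, 21 and 22 member bins counted in KD1, KD2, METTL3 and METTL14 (28.3%, 40.0%, 35.0% and 36.7%), against 40.2%, 50.8%, 52.5% and 40.0% of all bins, and 8 counted in both HNRNPG knockdowns (13.3% against 23.5%). At a size of 1 the counts were 0, 0, 0 and 3, against 2.31%, 3.95%, 5.73% and 2.58% of all bins, and 0 in both HNRNPG knockdowns, against 0.759%. Only 1 bin (1.67%, against 7.32%) had at least 0.25 on one side in all 4. Restricted to bins in the factors, the counts at 0.5 were 4 in KD1, 0 in METTL3 and 6 in METTL14, and with 1 median per gene model they were 1, 1, 0 and 1. Each of these settings changes the size or the number of units counted.

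The medians over member bins depend on single models. With 1 model left out they ran from -0.132 to -0.010 in KD1, -0.108 to -0.065 in KD2, 0.017 to 0.148 in METTL3 and -0.058 to 0.041 in METTL14. The model of SHB, MCART1 and EXOSC3 gave the values 0.017 and 0.041 when left out. The model of POLR2D and WDR33 gave -0.132 and 0.148, and that of DDX19B and DDX19A gave -0.107 in KD1. With 1 median per model KD1 was at -0.111, less the median of all bins KD2 was at -0.016, and over the factor bins METTL14 was at 0.105, so its sign is not fixed. The other 60 of 86 alternatives left counts within 1.5 times and medians within 0.05. Depth per bin is unknown and limits every value.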
